A study of Mus musculus with 37 samples.

Results

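The genes described here are 10 components of the NF-κB pathway out of 56748 genes in a table of left ventricular RNA: Chuk, Ikbkb, Ikbkg, Nfkb1, Nfkb2, Rela, Relb, Nfkbia, Nfkbiz and Tnfaip3. They were taken from the table by their symbols, and each symbol had 1 entry. The list was chosen by a measured value: Chuk was selected on its difference between the Arrest and Adr groups on day 7, where it was the 1 gene past the threshold. Its values in the day 7 groups are therefore given as a description, and the other 9 genes were added as its partners in the pathway. The mice were male and female C57BL/6J animals of 8 to 10 weeks, and RNA came from the left ventricle without its apex. Naïve mice (n = 5) received isoflurane anaesthesia only. Adr mice, called sham in the sample labels, were anaesthetised, intubated and ventilated, and received saline into the left ventricle followed by 500 µL of adrenaline at 15 µg/mL. Arrest mice received potassium chloride into the left ventricle, and after 8 min of asystole they were given adrenaline and chest compressions. Adr and Arrest hearts were collected after 0.5, 1, 3 and 7 d (n = 4 in each group), which with the Naïve group gave 37 libraries. Both arms received anaesthesia and adrenaline, and the Arrest arm differed from Adr by potassium chloride, asystole and chest compressions together, which cannot be told apart.

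NF-κB is a family of dimeric transcription factors that are held inactive in the cytoplasm by IκB proteins. Receptors for tumour necrosis factor, interleukin 1 and microbial products activate the IκB kinase (IKK) complex, which marks IκB for destruction, and the freed dimers then switch on genes of inflammation, cell survival and their own inhibitors. In the heart the pathway is known to respond to ischaemia, cytokines and mechanical load. Much of its control acts on protein modification and location, which RNA levels do not measure. Of the genes described, Chuk and Ikbkb encode the catalytic subunits IKKα and IKKβ, Ikbkg encodes the regulatory subunit NEMO, and Rela, Relb, Nfkb1 and Nfkb2 encode the DNA-binding subunits or their precursors. Nfkbia (IκBα), Tnfaip3 (a ubiquitin-editing enzyme) and Nfkbiz (a nuclear IκB protein that works as a cofactor) are themselves well-known targets of the pathway.

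In the mouse genome build GRCm38, Chuk lies at chr19:44073335-44107480 on the minus strand, Rela at chr19:5637483-5648130 and Nfkb2 at chr19:46304320-46312385, both on the plus strand. Nfkbia lies at chr12:55489410-55492647, and Tnfaip3 at chr10:19000910-19015657, both on the minus strand. Of the 10 genes, 6 had RefSeq promoter windows of 300 bases, from 250 before to 50 after a start site, in the GRCm38.p6 table, with 12 windows in total. Ikbkb, Nfkb1, Relb and Nfkbiz had no entry. The windows were searched on both strands for common forms of the κB site, of 10 bases each: GGGA or GGGG, then any 2 bases, then TTCC. A match was held by 2.92% of the 32851 promoter windows of all genes, and by 5 of the 12 windows here. These belonged to Nfkbia, Tnfaip3 and Nfkb2, and windows of Nfkb2 overlap, so they do not count separately. By gene, 3 of the 6 had a match, against 3.26% of the 27025 genes with a window. No match stood in the windows of Chuk, Rela and Ikbkg. The stretches below are shown because they set the kinase gene Chuk, on which the day 7 values turn, beside 3 genes of the pathway whose windows held a match, and for Nfkb2 the first window is shown. Each is written 5′ to 3′ on the strand of its gene, capitals mark a match on either strand, and the Chuk and Nfkbia stretches run from 110 to 11 bases before the start site.
Chuk (chr19:44107488-44107587, minus strand): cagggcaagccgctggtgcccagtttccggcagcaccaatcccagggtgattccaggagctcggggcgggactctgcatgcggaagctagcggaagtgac
Nfkbia (chr12:55492658-55492757, minus strand): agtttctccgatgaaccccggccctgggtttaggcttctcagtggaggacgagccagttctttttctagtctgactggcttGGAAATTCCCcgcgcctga
Tnfaip3 (chr10:19015403-19015432, minus strand): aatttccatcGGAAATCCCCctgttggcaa
Nfkb2, upstream match (chr19:46304689-46304718, plus strand): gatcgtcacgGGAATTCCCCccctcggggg
Nfkb2, match at the start site (chr19:46304716-46304745, plus strand): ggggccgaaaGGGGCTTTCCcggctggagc
A match describes the letters in the window and does not show that a factor binds there.

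Levels are given in FPKM (fragments of a gene, scaled to its length and between libraries), the deposited unit, in which genes of different length can be compared. The scaling between libraries was not to total depth alone. In each library the median ratio of genes to their geometric means over the libraries was 1.0131. The deposited values had thus already been equalised between libraries by this median ratio. The libraries held 13197037 to 30179901 fragments counted to genes. All 8 cardiomyocyte markers were present in every group. The Adr 3 d replicate 3 library stood apart. Mitochondrial genes took 9.36% of its fragments against 20.8% to 30.9% elsewhere, its 8 cardiomyocyte markers summed to 3793 FPKM against at least 8650 elsewhere, and its 6 macrophage and monocyte markers summed to 2527 FPKM against at most 1180 elsewhere. It held the highest Nfkb1 (6.10 FPKM) and Relb (4.98 FPKM) of all 37 libraries and the lowest Ikbkg (2.79 FPKM). Naïve replicate 4 had the fewest genes above 0, 13475, and the highest Ikbkg, Nfkb2 and Tnfaip3. In bulk tissue, fewer cells of a type and less RNA per cell cannot be told apart. The p-values measure the spread between these samples.

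Over the 37 libraries, Nfkbia had the highest mean level of the 10 genes at 51.0 FPKM, followed by Rela at 14.2 FPKM. Nfkbia was above Rela, and Rela above Chuk, in all 37 libraries. Chuk (5.66 FPKM), Nfkb2 (4.72 FPKM), Ikbkg (4.65 FPKM) and Nfkb1 (4.42 FPKM) lay close together. Chuk was above Nfkb2 in 26 of 37 libraries and Nfkb2 above Ikbkg in 18 of 37, so that these neighbours had no fixed order. Relb followed at 2.67 FPKM, below Nfkb1 in 37 of 37 libraries. Nfkbiz (1.73 FPKM) and Ikbkb (1.51 FPKM) again had no fixed order, with Nfkbiz higher in 15 of 37 libraries, and Tnfaip3 was lowest at 0.792 FPKM. Behind these levels stood between 281 and 1094 fragments per library for Chuk, but only 8 to 560 for Nfkbiz and 34 to 297 for Tnfaip3. The genes also differed in how far replicates spread. The SD within groups on the log2(FPKM + 1) scale was 0.14 for Chuk, Ikbkb and Nfkb1 and 0.16 for Rela, against a median of 0.30 over the 16579 genes tested. For Nfkbia it was 0.49 and for Nfkbiz 0.54, among the more variable genes of the table.

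**Figure D1:**
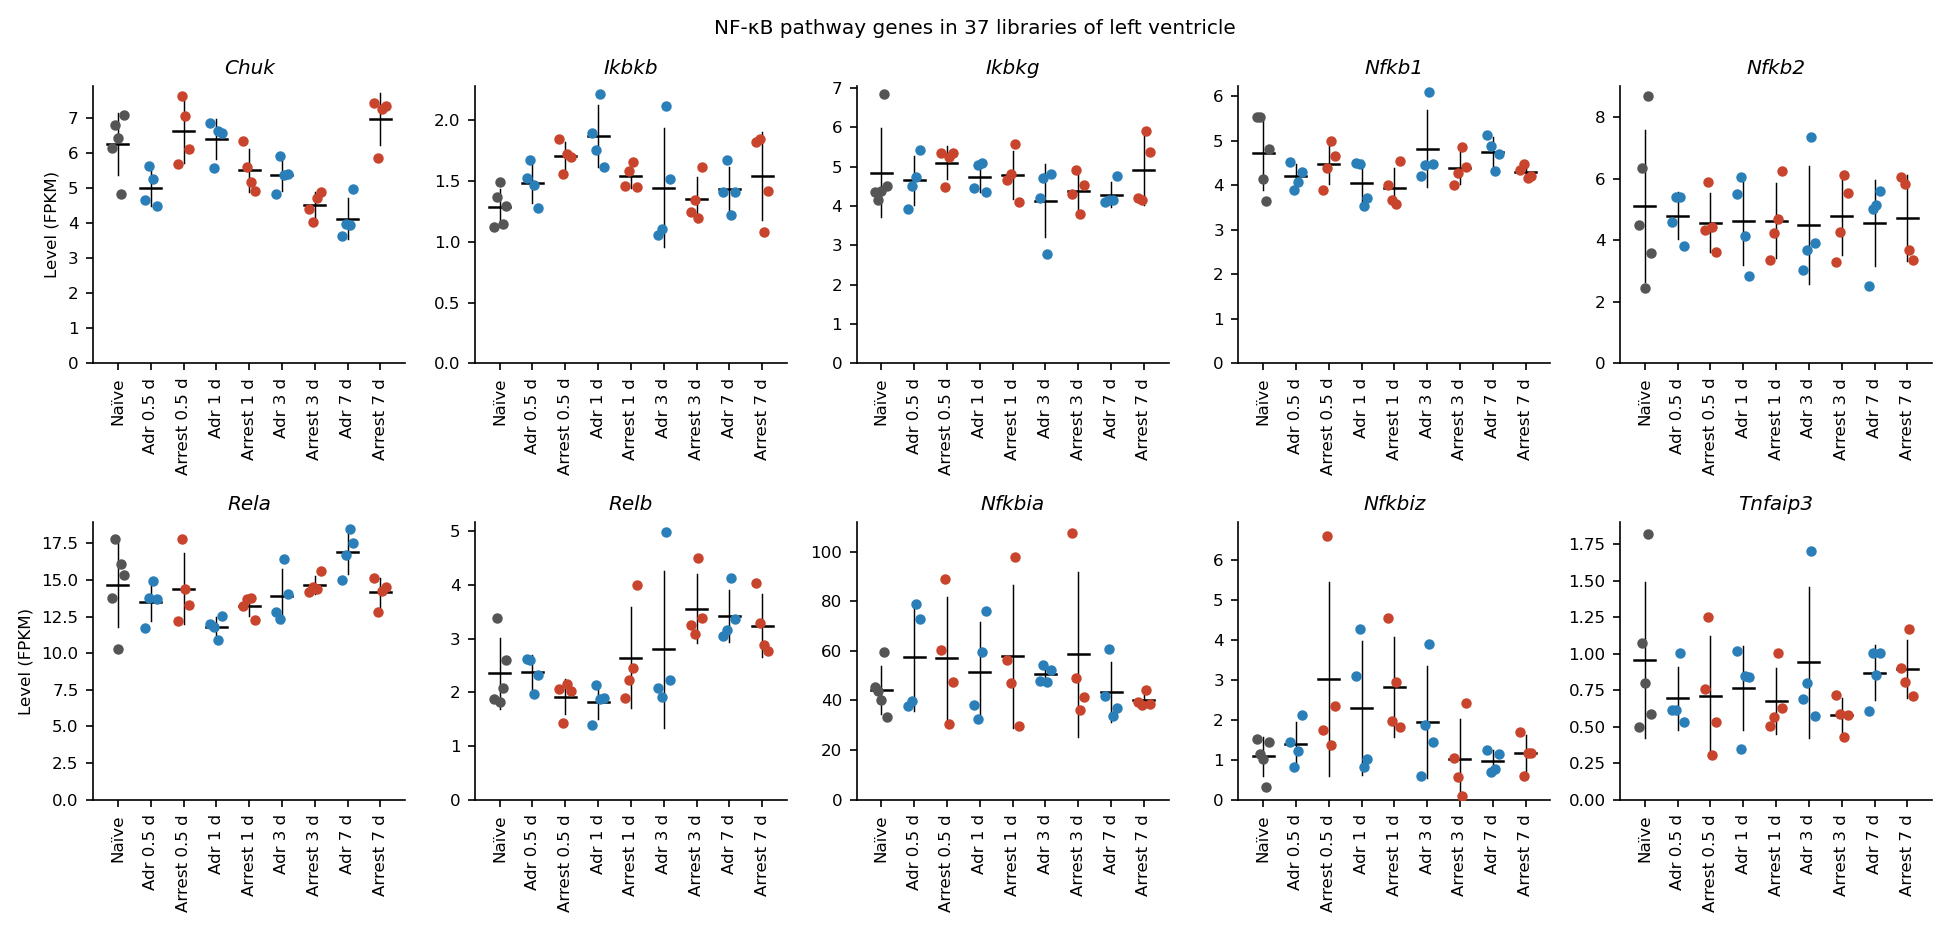
Level in FPKM (vertical axis, linear and starting at 0) of each of the 10 genes in the 9 groups (horizontal axis). Points are single libraries, horizontal bars are group means and vertical lines are ±1 SD (n = 5 Naïve, n = 4 elsewhere). Chuk is lowest in Adr 7 d (mean 4.14 FPKM) and highest in Arrest 7 d (6.98 FPKM), while Nfkbia and Nfkbiz spread widely within many groups.

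Chuk encodes IKKα, the catalytic subunit that also drives the alternative branch of the pathway through Nfkb2 and Relb. In Naïve hearts its levels were 6.14, 6.79, 6.45, 4.83 and 7.10 FPKM (6.26 ± 0.88, SD, n = 5). On day 7 the Adr libraries had 3.65, 3.97, 3.96 and 4.97 FPKM (4.14 ± 0.57, SD, n = 4), and the Arrest libraries had 7.42, 5.87, 7.26 and 7.34 FPKM (6.98 ± 0.74, SD, n = 4). The lowest Arrest library was above the highest Adr library, as for 1.65% of all genes. The difference between the means was 0.64 on the log2(FPKM + 1) scale. Chuk ranked first of 16579 genes in this comparison, in which 0.00603% of genes passed the threshold. In limma its adjusted p was 0.0496, just under the threshold, and that of the next gene, Endov, was 0.211. Chuk was past the threshold in 6 of the 20 alternatives and not in the other 14. This is the contrast that chose Chuk. Its rank, adjusted p and count of calls describe that choice and are not evidence for a difference.

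Set beside the Naïve group, the 2 day 7 means, whose gap chose Chuk, lay on different sides. The libraries of both groups overlapped the Naïve ones (4.83 to 7.10 FPKM), with 3.65 to 4.97 FPKM in Adr 7 d and 5.87 to 7.42 FPKM in Arrest 7 d. As a description, the Arrest 7 d mean differed from the Naïve mean by 0.14 on the log2(FPKM + 1) scale and the Adr 7 d mean by -0.50. Both comparisons use the same 5 Naïve libraries.

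At the earlier days, which the choice of Chuk did not use, the order of Arrest and Adr varied. At 0.5 d the Adr libraries had 4.67, 5.63, 5.27 and 4.50 FPKM (5.02 ± 0.52, SD) and the Arrest libraries 5.68, 7.64, 7.06 and 6.12 FPKM (6.62 ± 0.89, SD). All 4 Arrest values were above all 4 Adr values, and 1.72% of all genes lay above Adr in this way. The difference of 0.34 ± 0.11 (SE) on the log2(FPKM + 1) scale had an unadjusted p of 0.00516 and an adjusted p of 1 in limma, and no gene of 16579 passed the threshold. At 1 d the Adr libraries had 6.86, 5.57, 6.63 and 6.57 FPKM and the Arrest libraries 6.35, 5.59, 5.19 and 4.92 FPKM. At 3 d the Adr libraries had 4.82, 5.91, 5.37 and 5.42 FPKM and the Arrest libraries 4.39, 4.05, 4.71 and 4.88 FPKM. On these days the Arrest mean was the lower one and the groups overlapped, with differences of -0.19 ± 0.11 (SE) and -0.21 ± 0.11 (SE) and adjusted p of 0.807 and 0.907. The Arrest minus Adr difference at 0.5 d exceeded that at 1 d by 0.53 ± 0.16 (SE, unadjusted p = 0.00238, adjusted p = 1) and that at 3 d by 0.55 ± 0.16 (SE, unadjusted p = 0.00159, adjusted p = 0.974), which limma did not call.

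Against Naïve hearts, Chuk gave the lowest adjusted p of the 10 genes at Arrest 3 d, where it was lower by a log2 difference of -0.39 ± 0.11 (SE, adjusted p = 0.0998). The groups overlapped through Naïve replicate 4, at 4.83 FPKM. Without this library the difference was -0.47 and the adjusted p 0.0454, while over all alternatives the adjusted p ranged from 0.0454 to 0.352. At Adr 0.5 d the difference was -0.27 ± 0.11 (SE, adjusted p = 0.246). The lowest group means of Chuk were those of Adr 7 d, Arrest 3 d and Adr 0.5 d.

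Ikbkb encodes IKKβ, the main kinase of IκBα. It had its lowest mean in Naïve hearts, with 1.12, 1.37, 1.49, 1.15 and 1.29 FPKM (1.29 ± 0.15, SD, n = 5). The Arrest 0.5 d libraries had 1.84, 1.56, 1.72 and 1.69 FPKM and the Adr 1 d libraries 1.89, 1.76, 2.22 and 1.62 FPKM. In both groups every library was above every Naïve library. Among all genes, 4.49% lay above Naïve in this way at Arrest 0.5 d and 2.5% at Adr 1 d. On the log2(FPKM + 1) scale, which understates differences of genes near 1 FPKM, Ikbkb differed from Naïve by 0.25 ± 0.11 (SE, adjusted p = 0.243) at Arrest 0.5 d and by 0.33 ± 0.11 (SE, adjusted p = 0.155) at Adr 1 d. Neither passed the threshold under any alternative run. Fibroblast markers were also higher at Adr 1 d. The 6 fibroblast markers summed to 328 to 447 FPKM in the Adr 1 d libraries and to 226 to 303 FPKM in the Naïve ones, without overlap. The 4 atrial markers summed to 30.02 to 693 FPKM and 13.8 to 32.4 FPKM, with overlap. The sums of the cardiomyocyte, the endothelial, and the macrophage and monocyte markers overlapped between these groups as well. At Arrest 0.5 d the fibroblast markers summed to 239 to 298 FPKM. The part of these markers in the Ikbkb values was not tested. The ratio of Chuk to Ikbkb, both per length, was 4.89 ± 0.61 (SD) in Naïve hearts, 2.92 ± 0.54 in Adr 7 d and 4.79 ± 1.53 in Arrest 7 d. In the other groups its mean lay between 3.38 in Arrest 3 d and 4.01 in Adr 3 d. The day 7 ratios hold the Chuk values that chose the gene and are a description only. They overlapped, with 2.37 to 3.51 in Adr 7 d and 3.18 to 6.72 in Arrest 7 d.

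Ikbkg encodes NEMO, which links the kinases to ubiquitin chains. Its group means lay between 4.13 FPKM in Adr 3 d and 5.10 FPKM in Arrest 0.5 d, and no unadjusted p was at most 0.05 in any comparison. The Naïve libraries had 4.35, 4.14, 4.38, 6.85 and 4.50 FPKM, so that replicate 4 alone stood above the others. The gene overlaps G6pdx (mean 4.44 FPKM) on the opposite strand. The strand setting of the counting is not given in the sources used here, so reads of these genes may be mixed, and the values of Ikbkg are uncertain.

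**Figure D2:**
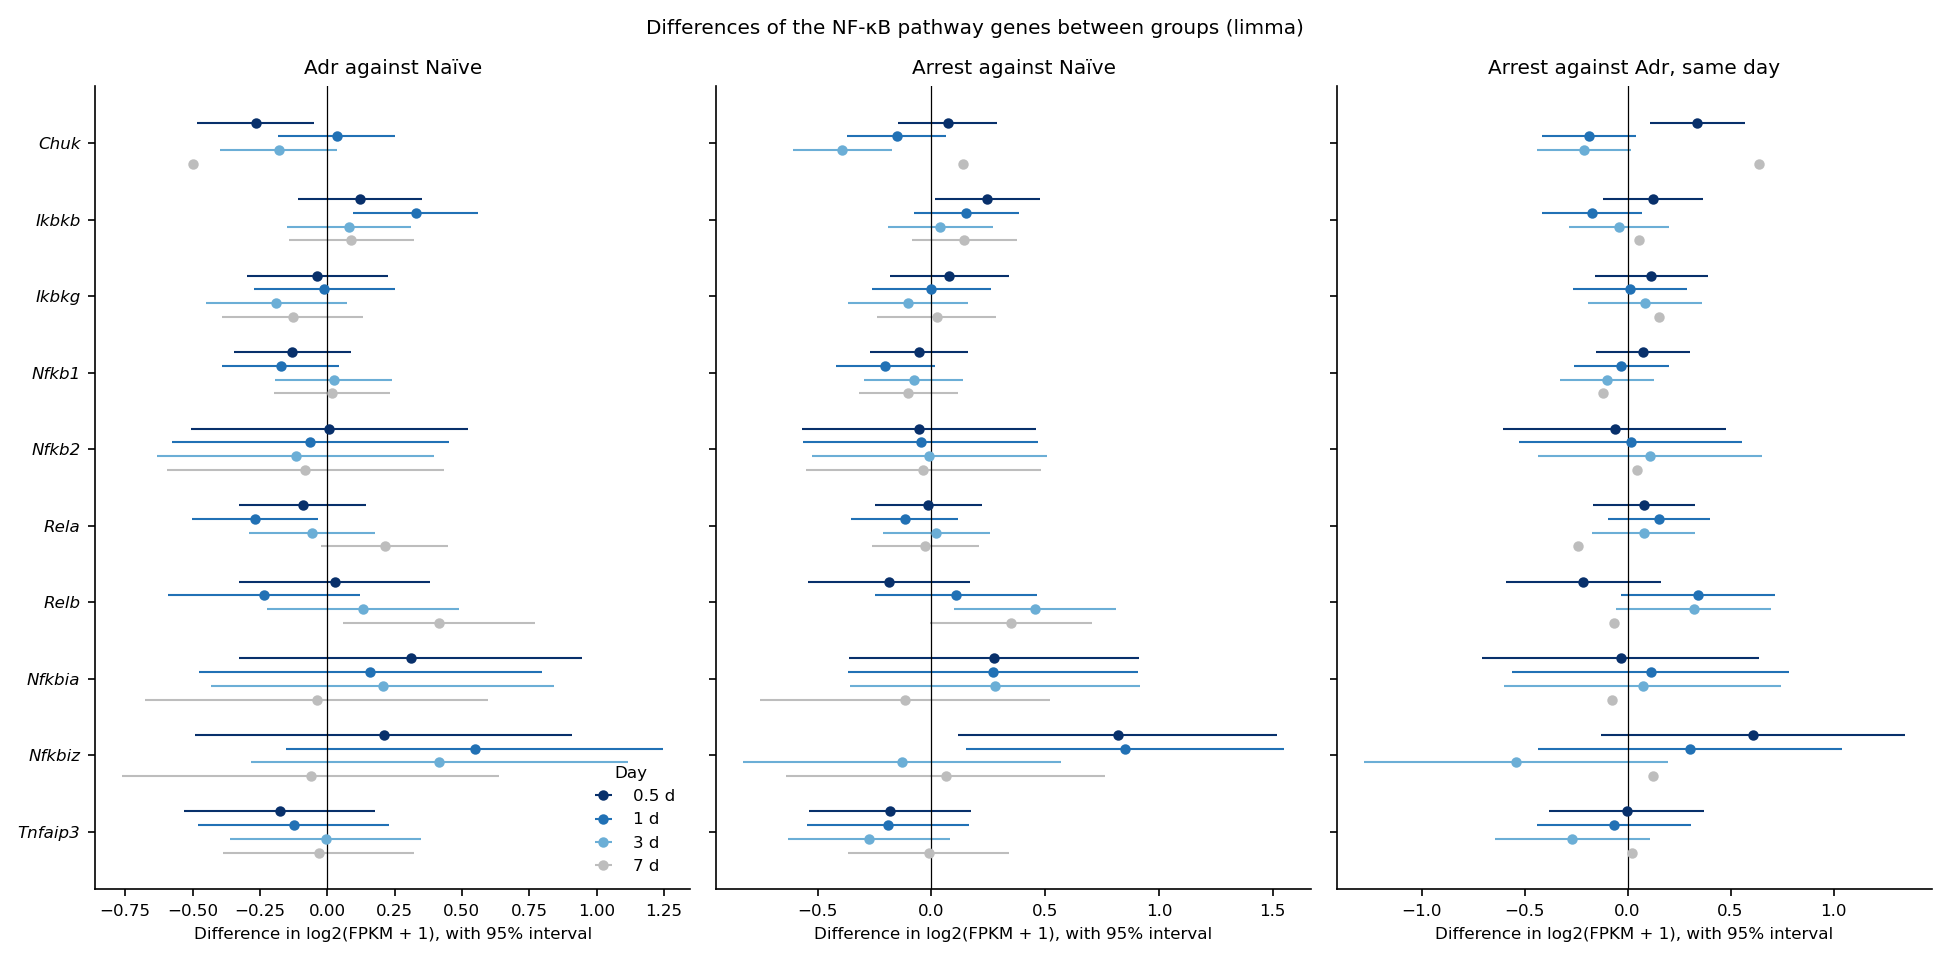
Differences in log2(FPKM + 1) (horizontal axes) for the 10 genes (vertical axis), from the limma fit, with 95% intervals; colours mark days 0.5, 1, 3 and 7, from top to bottom within each gene. Chuk at 7 d lies at -0.50 for Adr against Naïve and at 0.64 for Arrest against Adr; no interval is drawn for Chuk at 7 d or for Arrest against Adr at 7 d, the contrast that chose Chuk.

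Rela and Relb are subunits with transactivation domains, Rela in the classical branch and Relb in the alternative branch. Within the Adr arm both were lower at 1 d than at 7 d, without passing the threshold. Rela had 12.0, 11.8, 10.9 and 12.5 FPKM at Adr 1 d and 14.97, 16.7, 18.5 and 17.5 FPKM at Adr 7 d. Relb had 1.38, 2.14, 1.88 and 1.89 FPKM at Adr 1 d and 3.05, 3.16, 4.13 and 3.37 FPKM at Adr 7 d. For both genes every Adr 1 d library was below every Adr 7 d library, as was the case for 3.3% of all genes, while 0.0422% of genes passed the threshold. The differences were -0.48 ± 0.12 (SE, unadjusted p = 0.000392, adjusted p = 0.141) for Rela and -0.65 ± 0.18 (SE, unadjusted p = 0.0013, adjusted p = 0.186) for Relb. These values depended on how libraries were weighted. Without the Adr 3 d replicate 3 library, which belongs to neither group but adds to the common spread, the adjusted p were 0.0531 and 0.0490. With sample quality weights they were 0.0179 and 0.0180. Over all 20 alternatives the adjusted p ranged from 0.0179 to 0.349 for Rela and from 0.0180 to 0.443 for Relb. At Adr 0.5 d both genes also lay below their Adr 7 d values without overlap (3.5% of all genes did so, and 0.00603% passed the threshold), with differences of -0.30 (adjusted p = 0.478) and -0.39 (adjusted p = 0.599).

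In the Arrest arm, Relb had 2.06, 1.43, 2.15 and 2.03 FPKM at 0.5 d and 4.04, 3.29, 2.87 and 2.77 FPKM at 7 d. Every 0.5 d library was below every 7 d library, which was so for 4.99% of all genes. The difference of -0.54 ± 0.18 (SE) had an adjusted p of 0.210, with a range from 0.0376 to 0.536 over the alternatives, and 0.38% of genes passed the threshold. At Arrest 3 d, Relb had 3.26, 3.09, 4.50 and 3.39 FPKM (3.56 ± 0.64, SD) against 1.88, 3.39, 1.82, 2.08 and 2.60 FPKM in Naïve hearts (2.35 ± 0.65, SD), a difference of 0.45 ± 0.17 (SE, adjusted p = 0.230). Macrophage and monocyte markers were also higher in the median there. Their sum was 539 to 1180 FPKM at Arrest 3 d and 341 to 597 FPKM in Naïve hearts, with 6 of 6 markers detected in both groups. They did not go with Relb in every group. At Arrest 7 d their sum was 328 to 471 FPKM, with a Relb mean of 3.24 FPKM. At Adr 1 d, where Relb had its lowest group mean (1.82 FPKM), their median sum was 587 FPKM. The part of these markers in the Relb values was not tested. At Adr 3 d the Relb mean of 2.80 FPKM rested on replicate 3. The difference from Naïve was 0.13 with it and -0.11 without it. Rela in Arrest hearts stayed within 13.2 to 14.7 FPKM in the group means, and no Arrest group had an unadjusted p of at most 0.05 against Naïve.

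Nfkb1 and Nfkb2 encode precursors that are processed to the partners of Rela and Relb. Group means of Nfkb1 lay between 3.95 FPKM in Arrest 1 d and 4.82 FPKM in Adr 3 d, and those of Nfkb2 between 4.50 and 5.12 FPKM. Neither gene had an unadjusted p of at most 0.05 in any comparison. Without Adr 3 d replicate 3, the difference of Nfkb1 between Adr 3 d and Naïve changed from 0.02 to -0.08. Nfkb2 was highest (8.71 FPKM) and lowest (2.44 FPKM) in 2 libraries of the same Naïve group, a 3.57-fold span with no treatment between them. Its 2 overlapping neighbours on the opposite strand, 4833438C02Rik and Psd, had means of 0.821 and 0.559 FPKM.

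Of the feedback genes, Nfkbiz gave the largest differences in the first day after arrest. Naïve hearts had 1.53, 1.15, 1.02, 0.308 and 1.44 FPKM (1.09 ± 0.48, SD), Arrest 0.5 d hearts 1.75, 6.601, 1.37 and 2.35 FPKM (3.02 ± 2.42, SD), and Arrest 1 d hearts 4.53, 1.96, 2.93 and 1.82 FPKM (2.81 ± 1.25, SD). All 4 Arrest 1 d libraries exceeded all 5 Naïve libraries, while the Arrest 0.5 d and Naïve libraries overlapped. Of all genes, 5.69% lay above Naïve in this way at Arrest 1 d, and 7.11% passed the threshold. The difference from Naïve was 0.82 ± 0.34 (SE, adjusted p = 0.191) at 0.5 d and 0.85 ± 0.34 (SE, adjusted p = 0.130) at 1 d, and neither passed the threshold under any of the 21 alternatives. Without Arrest 0.5 d replicate 2, the library at 6.601 FPKM, the difference at 0.5 d was 0.46. The Adr 1 d libraries had 3.09, 4.26, 0.816 and 1.01 FPKM, so that Arrest and Adr overlapped on day 1. By 3 d the Arrest libraries had 1.03, 0.574, 0.102 and 2.41 FPKM. The Arrest minus Adr difference at 0.5 d exceeded that at 3 d by 1.15 ± 0.51 (SE, unadjusted p = 0.0315, adjusted p = 0.974). Within the Arrest arm, the 1 d libraries were above the 7 d libraries (0.593 to 1.71 FPKM) without overlap, as for 6.56% of all genes, with a difference of 0.79 (adjusted p = 0.292) in a comparison where 1.88% of genes passed the threshold.

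Nfkbia, the classical inhibitor and the gene of the list with the highest level, had no unadjusted p of at most 0.05 in any comparison. Other than in Adr 3 d and Arrest 7 d, its replicates varied by more than the group means, which ran from 40.2 to 58.6 FPKM. Naïve hearts had 45.2, 43.7, 40.1, 59.5 and 33.3 FPKM (44.4 ± 9.6, SD). Arrest hearts had 60.5, 89.0, 30.6 and 47.6 FPKM at 0.5 d, 56.3, 47.2, 97.9 and 29.8 FPKM at 1 d, and 108, 48.9, 36.1 and 41.6 FPKM at 3 d. Adr hearts had 37.6, 40.0, 79.0 and 72.8 FPKM at 0.5 d and 38.3, 32.4, 59.6 and 76.2 FPKM at 1 d. In each of these Arrest and Adr groups the highest library was above all Naïve libraries and the lowest was below the Naïve mean. Adr 3 d libraries had 47.3 to 54.4 FPKM and Adr 7 d libraries 33.9 to 60.9 FPKM. At Arrest 7 d the 4 libraries lay close together, with 39.4, 38.4, 44.2 and 38.8 FPKM. The difference from Naïve was 0.28 at Arrest 0.5 d, with a 95% interval from -0.36 to 0.91. Tnfaip3 had group means between 0.578 FPKM in Arrest 3 d and 0.955 FPKM in the Naïve group, and no unadjusted p of at most 0.05.

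Counted over the 10 genes, limma called 0 at an adjusted p of at most 0.05 in each of the 8 comparisons with Naïve. The share of all 16579 genes called was 3.2% at Arrest 0.5 d, 7.11% at Arrest 1 d, 0.139% at Arrest 3 d and 0% at Arrest 7 d, and 0.187%, 0.627%, 0% and 0% at Adr 0.5, 1, 3 and 7 d. Counting unadjusted p up to 0.05 instead, the 10 genes gave 2 at Arrest 0.5 d (Ikbkb and Nfkbiz), 1 at Arrest 1 d (Nfkbiz), 2 at Arrest 3 d (Chuk and Relb), 1 at Adr 0.5 d (Chuk), 2 at Adr 1 d (Ikbkb and Rela) and 0 at Adr 3 d. Over all genes the same share was 18.1% at Arrest 0.5 d, 21.7% at Arrest 1 d and 13.7% at Arrest 3 d. It was 14% at Adr 0.5 d, 14.7% at Adr 1 d and 13.9% at Adr 3 d. The members' counts were therefore near this background. On day 7, leaving Chuk aside, 1 of 9 genes (Relb in Adr, a difference of 0.41, adjusted p = 0.760) had such a p, with 6.17% of all genes in Adr and 5.14% in Arrest. The median difference of the list at Arrest 0.5 d was 0.03 against 0.03 over all genes tested, and at Arrest 1 d it was -0.02 against 0.03.

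Between Arrest and Adr on the same day, 0 of the 10 genes were called at 0.5, 1 and 3 d, where 0% of all genes were. The number of the 10 genes with an unadjusted p of at most 0.05 was 1 at 0.5 d (Chuk) and 0 at 1 and 3 d, against 3.87%, 6.59% and 5.37% of all genes. Of these, the other 9 genes had intervals on both sides of 0 at 0.5 d. The interval at 0.5 d ran from -0.12 to 0.37 for Ikbkb, from -0.17 to 0.33 for Rela, and from -0.71 to 0.64 for Nfkbia.

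The remaining components of the pathway were read from 6 lists of receptors, adaptors, kinases, regulators and target genes. Of their 79 listed genes, 74 could be tested. In the Adr groups, limma called 0 of them against Naïve. The number with an unadjusted p up to 0.05 was 17 of 74 at Adr 0.5 d, 14 at 1 d, 17 at 3 d and 7 at 7 d, where the share over all genes was 14%, 14.7%, 13.9% and 6.17%. In the Arrest groups, 8 passed at 0.5 d (7 higher and 1 lower) and 11 at 1 d (8 higher and 3 lower), among 3.2% and 7.11% of all genes (1.75% higher and 1.45% lower at 0.5 d, 3.89% higher and 3.22% lower at 1 d). Arrest 3 d and 7 d gave 0 calls. The number with an unadjusted p up to 0.05 was 24 of 74 at Arrest 0.5 d, 20 at 1 d, 11 at 3 d and 6 at 7 d. The share over all genes was 18.1%, 21.7%, 13.7% and 5.14%. Differences between Arrest and Adr for these genes were not called on any day, so that a call against Naïve in Arrest hearts alone does not show that they differed from Adr hearts.

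Of the 11 receptors tested, 2 were called on both early days. Tnfrsf1a, the main receptor for tumour necrosis factor, had 15.6, 16.4, 18.7, 16.9 and 21.9 FPKM in Naïve hearts. It rose to 43.8, 44.6, 40.1 and 43.7 FPKM at Arrest 0.5 d and 43.1, 38.2, 35.8 and 47.2 FPKM at Arrest 1 d, which is a log2 difference of 1.23 ± 0.19 (SE, adjusted p = 0.000538) and 1.16 ± 0.19 (SE, adjusted p = 0.000436). All Arrest values on these days were above all Naïve values, and no single library removed the call. The Adr libraries lay between, with 23.4, 25.3, 33.2 and 40.1 FPKM at 0.5 d, and the Adr difference of 0.71 had an adjusted p of 0.0774. At Adr 3 d Tnfrsf1a had 21.5, 26.6, 41.2 and 48.9 FPKM, the last above every Arrest library. At Arrest 7 d it had 20.4 to 26.4 FPKM, below the early Arrest values and overlapping the Naïve ones. The means were 22.5 FPKM at Arrest 7 d and 17.9 FPKM in Naïve hearts. Tnfrsf12a, the receptor for the cytokine TWEAK, rose from 19.4 ± 8.2 FPKM (SD) in Naïve hearts to 57.5 ± 30.6 at Arrest 0.5 d and 66.0 ± 31.4 at Arrest 1 d. Its call at 0.5 d (adjusted p = 0.0352) was lost without any 1 of 5 libraries (highest adjusted p 0.183), while that at 1 d (adjusted p = 0.0088) held without each of the 9. With the number of the sample description as a covariate, neither receptor passed the threshold at 1 d. The differences were 1.14 for Tnfrsf1a (adjusted p = 0.0593) and 0.96 for Tnfrsf12a (adjusted p = 0.492). These numbers do not overlap between Arrest 1 d (70 to 95) and Naïve libraries (116 to 127). A fit with this covariate can therefore hardly separate the number from the group at 1 d, here and for the genes below.

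Among the kinases related to IKK and their partners, Tbk1, which acts in interferon induction, rose from 3.94 ± 0.56 FPKM (SD) to 6.66 ± 0.60 at Arrest 0.5 d (log2 difference 0.64 ± 0.14, SE, adjusted p = 0.0118), and this call held without each library. At 1 d its call (adjusted p = 0.00929) was lost without Arrest 1 d replicate 1 or 3 (highest adjusted p 0.0588) and with the description number as a covariate (0.240). Of the 12 other negative regulators, Irak3, a brake on interleukin 1 and Toll-like receptor signalling, had 2.23, 1.47, 2.67, 2.70 and 2.51 FPKM in Naïve hearts. It rose to 3.83, 4.65, 4.78 and 5.05 FPKM at Arrest 0.5 d (adjusted p = 0.0266) and to 5.77, 4.13, 5.73 and 3.80 FPKM at Arrest 1 d (adjusted p = 0.00854). The Irak3 call at 0.5 d was lost without Naïve replicate 2 or without Arrest 0.5 d replicates 2, 3 or 4 (highest adjusted p 0.0823), and that at 1 d held, but not with the description number as a covariate (adjusted p = 0.0763). The other called genes of these lists were Bcl3, Birc2 and, lower, Traf3 at 0.5 d, and Myd88, Sigirr and, lower, Traf3 at 1 d. Each of them lost its call without at least 2 of the 9 libraries, with adjusted p of up to 0.169 at 0.5 d (Traf3 without Arrest 0.5 d replicate 2) and 0.142 at 1 d (Myd88 without Naïve replicate 5). Over all alternatives their adjusted p reached 0.185 at 0.5 d (Traf3) and 0.332 at 1 d (Myd88).

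Of the 20 target genes tested, Lcn2, an iron-sequestering protein of the innate response, had the largest difference. Naïve hearts had 3.09, 1.08, 0.899, 3.42 and 0.227 FPKM. Arrest hearts had 17.1, 68.9, 16.02 and 70.2 FPKM at 0.5 d and 56.4, 18.9, 51.2 and 28.6 FPKM at 1 d. Lcn2 rose by a log2 difference of 3.85 ± 0.75 (SE, adjusted p = 0.00466) and 3.90 ± 0.75 (SE, adjusted p = 0.00208), and kept both calls without each library. With the number of the sample description as a covariate the difference at 1 d was 3.96, with an adjusted p of 0.106. Cd83, a surface protein of activated antigen-presenting cells, fell by 1.85 on the log2 scale at 1 d, from 8.54 ± 3.63 to 1.62 ± 0.70 FPKM (SD, adjusted p = 0.00164, and 0.0540 with that covariate), in the opposite direction to Lcn2. Cxcl1 was higher (1.56, adjusted p = 0.0300) and Nos2 lower (-0.92, adjusted p = 0.0277) at 1 d. The Cxcl1 call was lost without any 1 of 4 libraries (highest adjusted p 0.123) and the Nos2 call without any 1 of 5 (highest adjusted p 0.0962). With the description number as a covariate, the difference of Cxcl1 was 0.61 (adjusted p = 0.749) and that of Nos2 was -0.76 (adjusted p = 0.417). The median difference of the 20 targets was 0.46 at Arrest 0.5 d and 0.25 at Arrest 1 d, against 0.03 for all genes. Ccl20, Il6, Csf2 and Csf3 did not pass the filter on low values. Neutrophil markers were also higher in the median on these days, but they did not go with Lcn2 in every group. The sum of 7 was 0 to 9.74 FPKM in Naïve hearts, 3.60 to 32.2 FPKM at Arrest 0.5 d and 5.81 to 19.5 FPKM at Arrest 1 d, with Ly6g at 0 in all of these libraries, and Retnlg, Cxcr2 and Mmp8 also at 0 in all Naïve ones. At Adr 3 d the neutrophil sum had its highest median of the 9 groups, 16.1 FPKM. There Lcn2 had 1.32, 1.17, 0.932 and 8.25 FPKM. At Arrest 3 d the neutrophil sum was 3.38 to 31.7 FPKM and Lcn2 had 51.4, 4.11, 1.32 and 4.34 FPKM. The part of these markers in the Lcn2 values was not tested.

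**Figure D3:**
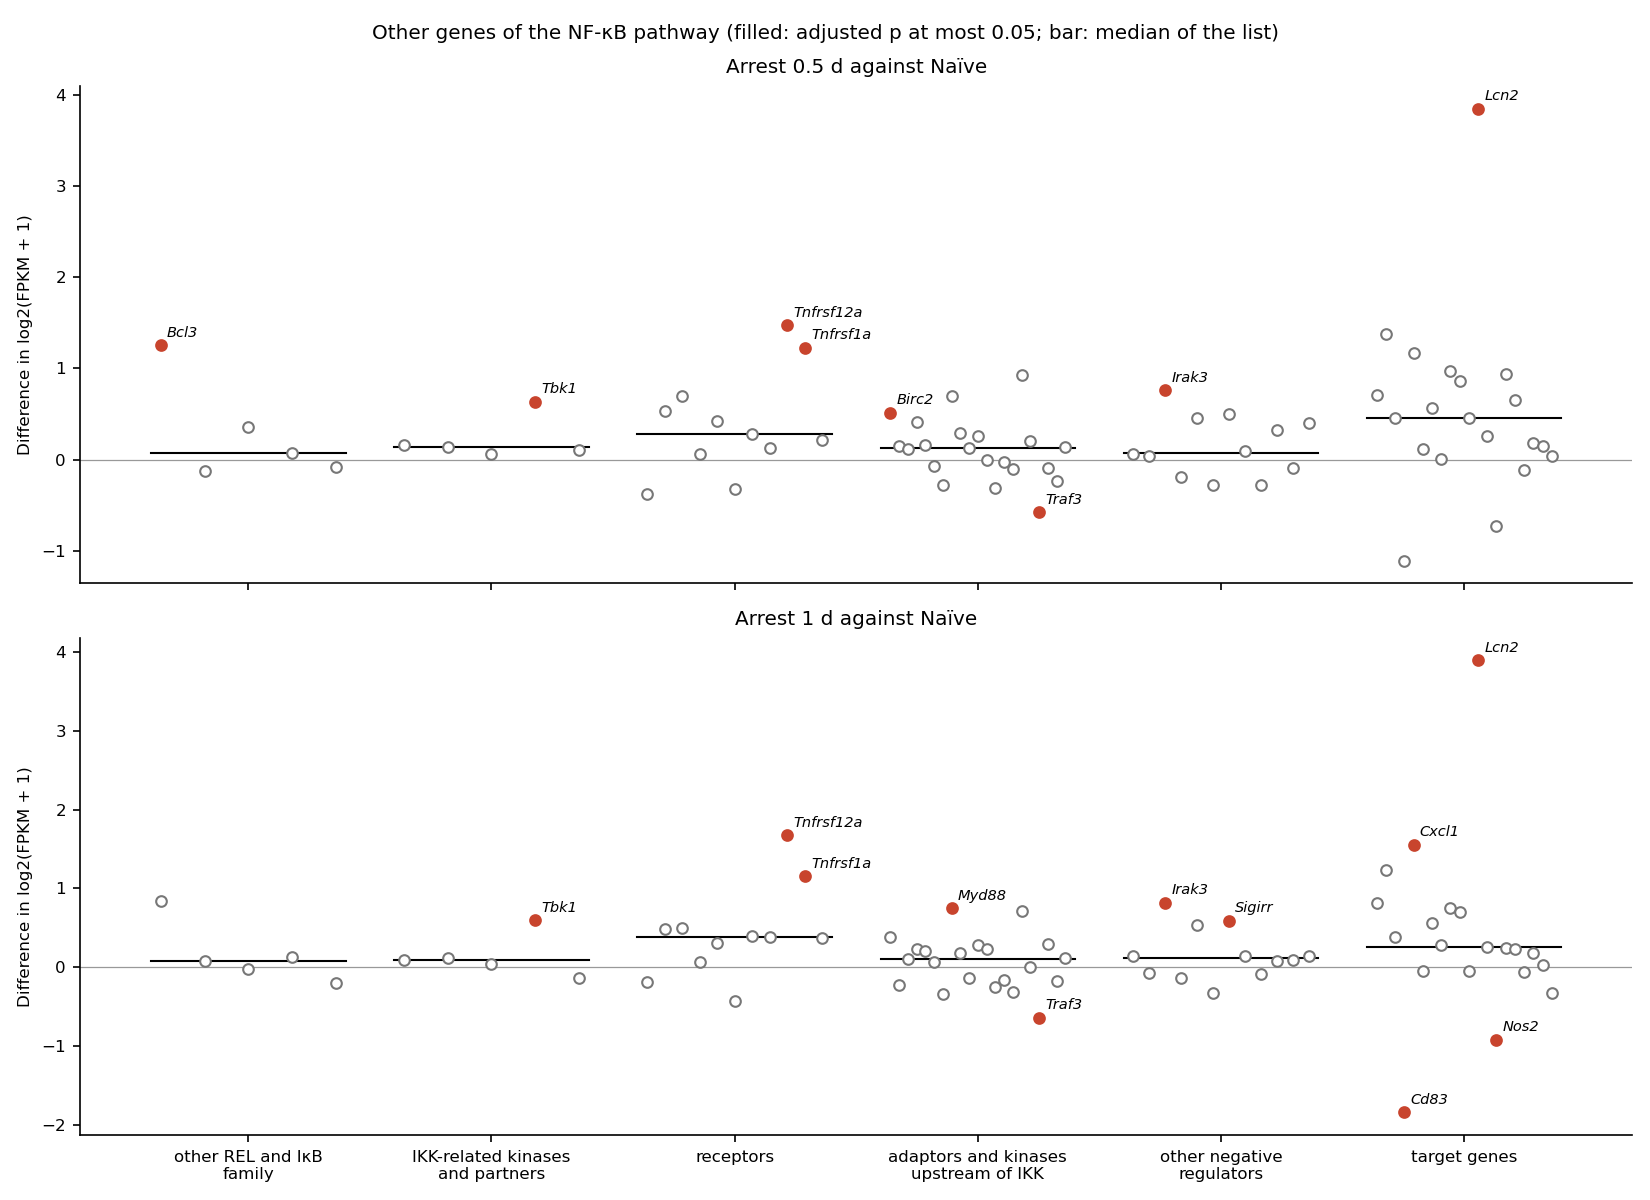
Difference in log2(FPKM + 1) from Naïve (vertical axes) for the other genes of the pathway in 6 lists (horizontal axis), at Arrest 0.5 d (top) and Arrest 1 d (bottom); each point is 1 gene, filled points have an adjusted p of at most 0.05 and bars are list medians. Lcn2 stands highest on both days, at 3.85 and 3.90, and Cd83 lowest at 1 d, at -1.85.

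Between early days and day 7 within the Arrest arm, Tnfrsf1a, Irak3 and Lcn2 were called as higher at both 0.5 d and 1 d. The differences were 0.91, 0.87 and 3.71 at 0.5 d and 0.84, 0.93 and 3.76 at 1 d, with adjusted p from 0.0128 to 0.0444. When each of the 8 libraries was left out in turn, at 0.5 d the call was lost in 7 of 8 fits for Tnfrsf1a, 8 of 8 for Irak3 and 6 of 8 for Lcn2, and at 1 d in 5, 4 and 2 of 8, with adjusted p of up to 0.149 and 0.0907. At 1 d, Traf5 and Sigirr were also called as higher and Cd83 as lower, and these calls were lost in 7, 8 and 6 of the 8 fits, with adjusted p of up to 0.182.

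The levels of the 10 genes were compared across the 37 libraries as a description, since libraries of a group share their treatment, and genes of a library share its depth and tissue makeup. On the log2(FPKM + 1) scale the most negative pair over all 37 libraries was Ikbkg with Nfkb1 (Pearson's r = -0.59, and -0.63 after group means were removed). The Adr 3 d replicate 3 library had the lowest Ikbkg and the highest Nfkb1 and Relb of the 37. Without it, a step chosen after seeing the data, r for Ikbkg with Nfkb1 was -0.46, and -0.52 within groups, and the most negative pair was Nfkb1 with Nfkbia (r = -0.48). Without Naïve replicate 4 as well, r for Ikbkg with Nfkb1 was -0.38, and -0.31 within groups. Nfkb2 went with Rela (r = 0.42, and 0.56 within groups), and Relb went within groups with Nfkb1 and Nfkb2 (r = 0.51 for both, and 0.32 and 0.38 without the Adr 3 d replicate 3 library). Chuk had r between -0.40 and 0.34 with the other 9. The genes most like Chuk among 11548 genes with a mean of at least 1 FPKM were Heatr5b and Stam (r = 0.58 for both), Pfdn4 and Gphn (both 0.57) and Herc4 (0.55). They were picked as the highest of 11548 correlations, which include the day 7 libraries that chose Chuk. Whether such values exceed those of unrelated genes was not tested. Nfkbia was matched more closely, by Ddit4 (r = 0.81), Glul (0.81), Trp53inp1 (0.80), Serinc3 (0.79) and Adgrf5 (0.78).

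**Figure D4:**
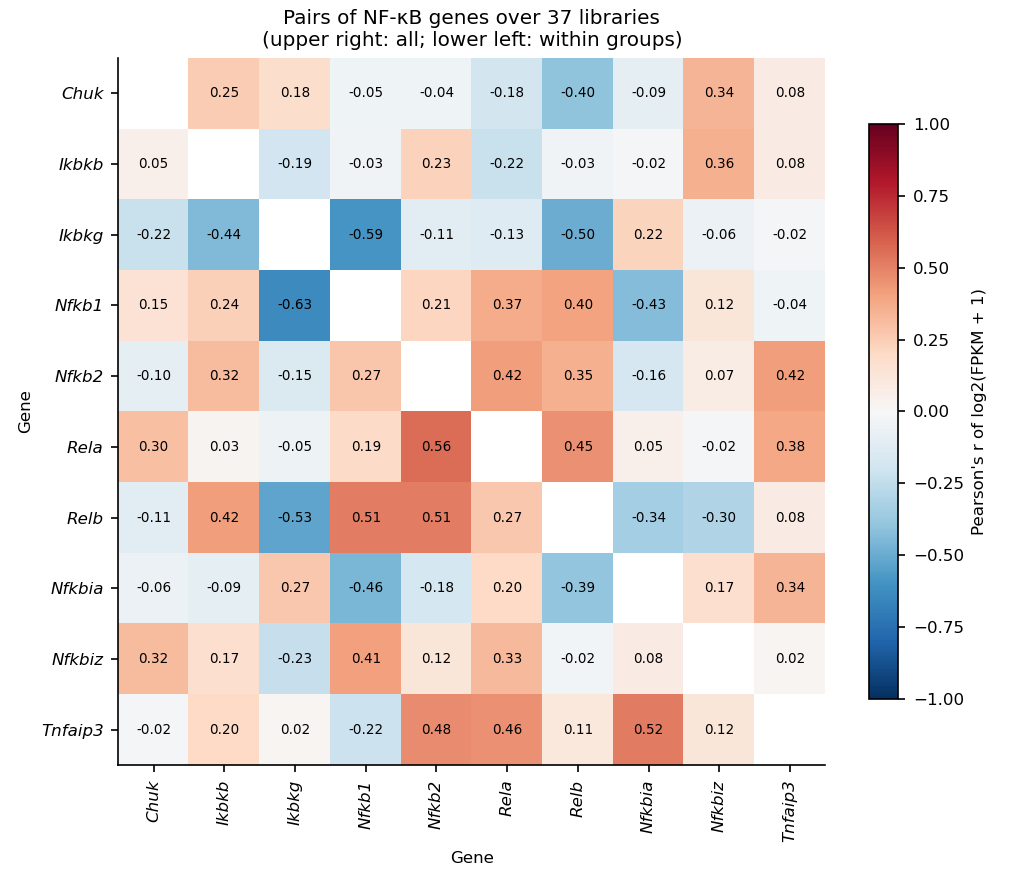
Pearson's r of log2(FPKM + 1) between pairs of the 10 genes (both axes) over 37 libraries, from -1 (blue) to 1 (red); the upper right triangle uses the values as they are and the lower left one the deviations from group means. Ikbkg with Nfkb1 has the lowest r, -0.59 in the upper and -0.63 in the lower triangle, and -0.46 and -0.52 without the Adr 3 d replicate 3 library.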

How the data were processed

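Left ventricular RNA was sequenced in 37 libraries, and per the labels each belonged to 1 of 9 groups. The authors deposited FPKM per gene for all libraries in 1 table, whose build, annotation and counting tool are not given in the sources used here. Multiplied by gene length, the FPKM values are whole multiples of 1 fragment (100% within 0.01), which gave the depth. Values were used as deposited, already equalised between libraries by their median ratio, with no further scaling in the main fit. Differences were tested on log2(FPKM + 1) with limma 3.58.1 in R 4.3.3, in 1 fit of 9 group means with an intensity trend, over the 16579 genes that reached 0.5 FPKM in 4 or more libraries. The p-values were two-sided and were Benjamini-Hochberg adjusted within each comparison, with a threshold of 0.05. Gene names came from the deposited table, GRCm38 positions from GENCODE M21 and promoters from RefSeq. Of 52073 gene identifiers shared with the GRCm38 annotation, 1472 had the same start and end in the deposited table, so its positions differ from those printed here. The steps were tested on simulated data. The 10 genes, the other lists and the tests were chosen with earlier results of these data known. The genes named beyond the 10 were those of the lists that passed the threshold, and the 5 most like Chuk and Nfkbia. Alternatives covered the pseudocount, filter, scaling, length, samples, covariates, weights and single libraries. The study left out 1 Adr 3 d sample for quality. The table holds 4, none set apart by the labels, and all were used.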

Additional observations from a re-analysis of the deposited data

Results flagged for a closer look

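Of 90 sets of replicates (10 genes in 9 groups), 7 held a library whose gap to its nearest neighbour, relative to the range of the group, exceeded Dixon's critical value, where chance flags about 1 in 20. Chuk was lowest at 5.87 FPKM in Arrest 7 d replicate 2, the next value being 7.26 FPKM. Ikbkg was highest at 6.85 FPKM in Naïve replicate 4 (next 4.50 FPKM), lowest at 4.47 FPKM in Arrest 0.5 d replicate 2 (next 5.25 FPKM) and highest at 4.75 FPKM in Adr 7 d replicate 4 (next 4.15 FPKM). Nfkb1 was highest at 6.10 FPKM in Adr 3 d replicate 3 (next 4.49 FPKM). Relb was lowest at 1.43 FPKM in Arrest 0.5 d replicate 2 (next 2.03 FPKM) and highest at 4.98 FPKM in Adr 3 d replicate 3 (next 2.23 FPKM).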

How the results depend on the processing

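Leaving aside Chuk in comparisons with day 7 groups, the count of the genes past the threshold was 0 in each comparison and changed in 5 fits. Without Naïve replicate 4 it was 1 for Arrest 3 d against Naïve (Chuk), and without Adr 3 d replicate 3 it was 1 for Adr 1 d against 7 d (Relb). With sample quality weights it was 1 for Arrest 0.5 d against 7 d (Relb, adjusted p = 0.0376), 1 for Adr 0.5 d against 7 d (Rela, -0.38, adjusted p = 0.0340) and 2 for Adr 1 d against 7 d (Rela and Relb). Leaving out each library of the compared groups in turn gave counts from 0 to 1 for Arrest 3 d against Naïve and 0 elsewhere. With the number of the sample description as a covariate, 3 differences from Naïve that were not called changed sign. Ikbkb at Arrest 1 d went from 0.15 to -0.0498. At Adr 3 d, Ikbkg went from -0.19 to 0.0815 and Nfkbiz from 0.42 to -0.0258. The numbers of Arrest 1 d and Adr 3 d libraries (63 to 95) all lay below the Naïve ones (116 to 127). Number and group can therefore hardly be told apart there, and the cause was not tested. Replicate numbers did not pair the samples: deviations of 144 same-numbered pairs correlated with a mean r of -0.00804, against 0.00282 for 464 other pairs. With a replicate block, 0 of the 10 genes passed the threshold. The Arrest against Adr call of Chuk at day 7 was lost (difference 0.64, adjusted p = 0.130), and the genes called of all 16579 went from 531 to 280 at Arrest 0.5 d and from 1179 to 768 at Arrest 1 d against Naïve. Over all 20 alternatives the day 7 difference of Chuk lay between 0.59 and 0.74. Its adjusted p ran from 0.000469 to 0.606 and was above the threshold in 14 of them. As this contrast chose Chuk, these values only describe the choice. Depth limits Nfkbiz and Tnfaip3 most, and the common spread over all libraries left a 95% interval from 0.12 to 1.52 for Nfkbiz at Arrest 0.5 d.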
